A study of Mus musculus with 8 samples.

Results

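The 7 CDK inhibitor genes Cdkn1a, Cdkn1b, Cdkn1c, Cdkn2a, Cdkn2b, Cdkn2c and Cdkn2d were followed across 4 genotypes of mouse vascular smooth muscle cells. They were taken from the deposited count table by symbol, as 7 of its 55353 entries. Transcripts were measured by polyA mRNA sequencing of cells from the aorta that were revived from frozen stocks. The genotypes were wild type and knockout for E12 and wild type and knockout for E47, each with 2 libraries from independent RNA extractions, 8 in all. E12 and E47 are splice forms of the E protein E2A, a basic helix-loop-helix transcription factor encoded by Tcf3, and each knockout was labelled as lacking 1 of the forms. The sources used here do not give strain, sex, age, passage or the way the alleles were made. Each knockout was compared with the wild type that carries its name. Whether the 2 extractions came from separate cultures or animals is not stated, so p-values reflect extraction-to-extraction spread, which may be technical. Genotype and cell line cannot be told apart, and in bulk RNA fewer expressing cells and less RNA per cell cannot be told apart either.

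Cyclin-dependent kinases (CDKs) bind cyclins and drive a cell from G1 into S phase by phosphorylating the RB proteins, which frees E2F factors. CDK inhibitors act against this step in a pair of families. The CIP/KIP proteins p21 (Cdkn1a), p27 (Cdkn1b) and p57 (Cdkn1c) bind complexes of cyclin and CDK. The INK4 proteins p16 and its relatives p15 (Cdkn2b), p18 (Cdkn2c) and p19 (Cdkn2d) bind CDK4 and CDK6 and keep D-type cyclins from activating them. Cdkn2a also encodes Arf, a protein of another reading frame that restrains Mdm2 and so protects p53. In arteries p27 and p21 are known for holding smooth muscle cells out of the cycle, E proteins are known activators of Cdkn1a, and the Cdkn2a and Cdkn2b locus is known for silencing by Polycomb complexes.

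The members lie at 5 chromosomes of the build GRCm38 (GENCODE M21). Cdkn1a (ENSMUSG00000023067.14) spans bases 29090976 to 29100727 of chromosome 17, on the plus strand. Cdkn2a (ENSMUSG00000044303.6) spans 89274471 to 89294653 of chromosome 4, and its neighbour Cdkn2b (ENSMUSG00000073802.5) spans 89306299 to 89311039 of the same minus strand. Cdkn2a has 2 coding transcripts with first exons of their own, a first exon of 207 bp for p16 and of 320 bp for Arf, and they share a second exon of 341 bp. The gene count therefore adds p16 and Arf transcripts. Cdkn2c lies farther along chromosome 4 (109660876 to 109667189, minus strand), Cdkn1b on chromosome 6 (134920401 to 134925513, plus strand), Cdkn2d on chromosome 9 (21288410 to 21291407, minus strand) and Cdkn1c on chromosome 7 (143458339 to 143461050, minus strand). Strand was not kept in these libraries. Of exon bases, 7.68% of Cdkn1a and 30.7% of Cdkn1c overlap an antisense gene, and reads of such partners cannot be told apart there.

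The start-site windows of Cdkn1a and of the Cdkn2a and Cdkn2b pair are shown because E2A binds E-boxes and because these 3 genes changed with opposite sign in the E12 and the E47 knockout, the E12 change of Cdkn2a being marginal. Each is a RefSeq window of 300 bp, 250 before and 50 after the start, written along the gene. Capitals mark the E-box letters used here for E proteins, searched on both strands. These were CAGGTG with its reverse complement CACCTG, and the palindrome CAGCTG.
Cdkn1a, chr17:29093519-29093818, plus strand, GRCm38.p6: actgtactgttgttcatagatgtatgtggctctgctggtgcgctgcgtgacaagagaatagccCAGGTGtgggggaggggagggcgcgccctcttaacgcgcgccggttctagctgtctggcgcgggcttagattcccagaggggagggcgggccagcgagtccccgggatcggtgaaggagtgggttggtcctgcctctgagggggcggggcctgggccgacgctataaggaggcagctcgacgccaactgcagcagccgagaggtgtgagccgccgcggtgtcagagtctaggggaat
Cdkn2a at the p16 start, chr4:89282143-89282442, minus strand, GRCm38.p6: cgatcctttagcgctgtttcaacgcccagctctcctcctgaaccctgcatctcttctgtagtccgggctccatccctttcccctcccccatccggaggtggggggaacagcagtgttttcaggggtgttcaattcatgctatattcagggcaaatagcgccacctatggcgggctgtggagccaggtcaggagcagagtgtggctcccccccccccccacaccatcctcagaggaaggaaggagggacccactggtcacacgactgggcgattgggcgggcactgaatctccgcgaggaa
Cdkn2a at the Arf start, chr4:89294570-89294869, minus strand, GRCm38.p6: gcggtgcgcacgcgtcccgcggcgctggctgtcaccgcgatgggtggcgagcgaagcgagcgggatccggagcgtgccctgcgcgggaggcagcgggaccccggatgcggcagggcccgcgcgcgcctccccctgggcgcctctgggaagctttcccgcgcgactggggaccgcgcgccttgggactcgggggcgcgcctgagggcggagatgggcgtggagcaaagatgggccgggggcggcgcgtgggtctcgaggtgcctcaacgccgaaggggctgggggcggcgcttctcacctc
Cdkn2b, chr4:89310983-89311282, minus strand, GRCm38.p6: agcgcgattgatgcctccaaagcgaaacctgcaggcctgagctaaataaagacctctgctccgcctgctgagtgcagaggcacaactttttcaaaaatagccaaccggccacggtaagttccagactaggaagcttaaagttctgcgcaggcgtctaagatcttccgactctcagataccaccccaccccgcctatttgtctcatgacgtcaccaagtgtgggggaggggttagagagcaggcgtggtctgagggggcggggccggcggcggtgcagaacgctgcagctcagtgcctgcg
The Cdkn1a window held 1 such match, CAGGTG at -187 from the start. A window at the upstream Cdkn1a start also held 1, CAGCTG at +37. No match stood in the windows of Cdkn1b, Cdkn2a, Cdkn2b, Cdkn2c or Cdkn2d. Other E-boxes were CAACTG at -4 in the printed Cdkn1a window, CAAGTG at -37 for Cdkn2b and CACGTG at +34 for Cdkn2c. Of 32851 RefSeq promoter windows of this length, 32.9% hold at least 1 of these motifs, and a match is a description of the window, not a binding site.

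Depth and composition of the libraries bear on every value that follows. Library totals ran from 13909230 to 27517374 counts, so that 3 counts in a library amount to 0.117 to 0.224 CPM (counts scaled to a common library size by trimmed means of M values). Of the 7 members, 6 passed the filter on low counts, with at least 219 counts in every library, and Cdkn1c did not. Tcf3 was higher in both knockouts, by 0.41 and 0.44 on the log2 scale (edgeR adjusted p = 8.6e-05 and 3.4e-05). A gene count cannot separate the E12 from the E47 exon, so it does not check the labels. The E47 wild-type libraries stood apart. Their 10 endothelial markers summed to 682 to 751 CPM against 4.48 to 10.8 CPM in the 6 other libraries, with Cldn5 at 3 counts or fewer in every genotype. Kdr was called higher in the E12 than in the E47 wild type, where 8 endothelial markers were called lower. Smooth muscle markers summed to 4418 to 4663 CPM in the E47 wild type against 1821 to 2441 CPM elsewhere. Against the E47 wild type, 8 of these 10 markers were called lower in the E12 wild type and only Myocd higher. In the E47 knockout 9 were lower and only Myocd higher, and in the E12 knockout 10 were lower. In the order E47 wild type, E12 wild type, E12 knockout, E47 knockout, mean Myh11 was 98.2, 7.4, 2.4 and 6.9 CPM. Cnn1 was 103.5, 7.3, 2.3 and 19.8 CPM and Smtn 310.1, 113.3, 127.9 and 115.3 CPM. Myocd was lower in the E47 wild type (4.73 and 5.07 CPM) than in the E12 wild type (10.3 and 12.3) and the E47 knockout (12.8 and 11.5). In the E12 knockout it was 1.21 and 2.10 CPM. The 10 mesothelial markers summed to 206 to 222 CPM in the E47 wild type, against 1554 to 1663 in the E12 wild type, 948 to 977 in the E12 knockout and 407 to 420 CPM in the E47 knockout. Krt18 made up 111 to 122 CPM of that sum and was 0.319 to 2.52 CPM in the other libraries, against the direction of the other 7 mesothelial markers tested. Fibroblast markers summed to 10487 to 10509 CPM in the E47 wild type and 10869 to 16526 CPM elsewhere. Among them Dcn was at 1.95 and 2.15 CPM there against 58.8 to 98.9 CPM, Cd34 at 91.6 and 95.1 against 0.961 to 18.1 CPM, and Dpt and Lum were at 3 counts or fewer. Of 10 macrophage and leukocyte markers, 7 were at 3 counts or fewer in every genotype. Their sum was 13.9 to 15.3 CPM in the E47 wild type, of which Lyz2 made up 10.8 and 12.9, and 1.56 to 6.06 CPM elsewhere. Xist had 102 and 198 counts in the E47 wild type and 0 to 2 in the other libraries. Comparisons that use the E47 wild type cannot be made without it, and the part of these differences in the members' values was not tested.

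Per kb of exon, Cdkn1a and Cdkn2a were the leading CDK inhibitor transcripts in all 4 genotypes. Mean Cdkn1a levels were 98.8 ± 4.32, 71.7 ± 0.493, 84.7 ± 1.99 and 115 ± 2.61 RPKM (CPM per kb of exon, SD, n = 2), in the order E12 wild type, its knockout, E47 wild type, its knockout. Other members follow in that order. Cdkn2a was next at 68.5, 59.1, 38.1 and 61.5 RPKM. Cdkn2b came after it at 43.5, 27.2, 19.4 and 38.6 RPKM, so that p21, p16 or Arf, and p15 transcripts made up most of the family total. In the E47 wild type Cdkn2b (19.4 ± 1.32) and Cdkn1b (19.2 ± 1.14) were level within their spread. Cdkn1b, Cdkn2c and Cdkn2d lay between 8.18 and 19.2 RPKM in every genotype. Summed over the family, the level was 254 ± 17.0 RPKM in the E12 wild type and 197 ± 6.66 in its knockout, but 187 ± 0.69 in the E47 wild type and 253 ± 4.47 in its knockout. The sums in E12 wild-type and E47 knockout cells were alike in mean and made of different parts, since Cdkn1a took 39.0% of the first and 45.5% of the second. The 4 INK4 genes together took 54.6% ± 1.08 and 53.8% ± 1.05 of the family sum in the E12 wild type and knockout, and 44.5% ± 1.51 and 47.6% ± 0.192 in the E47 wild type and knockout (SD, n = 2). These sums are descriptions of levels and were not tested. Levels per kb, sums and shares depend on the exon length used, here the union over all transcripts of a gene. It was 3553 bp for Cdkn1a, 4552 bp for Cdkn1b and 1172 bp for Cdkn2a. Lengths of single transcripts are shorter for some members and were not tried, so the shares of the families and the order of the members hold for this length only.

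**Figure D1:**
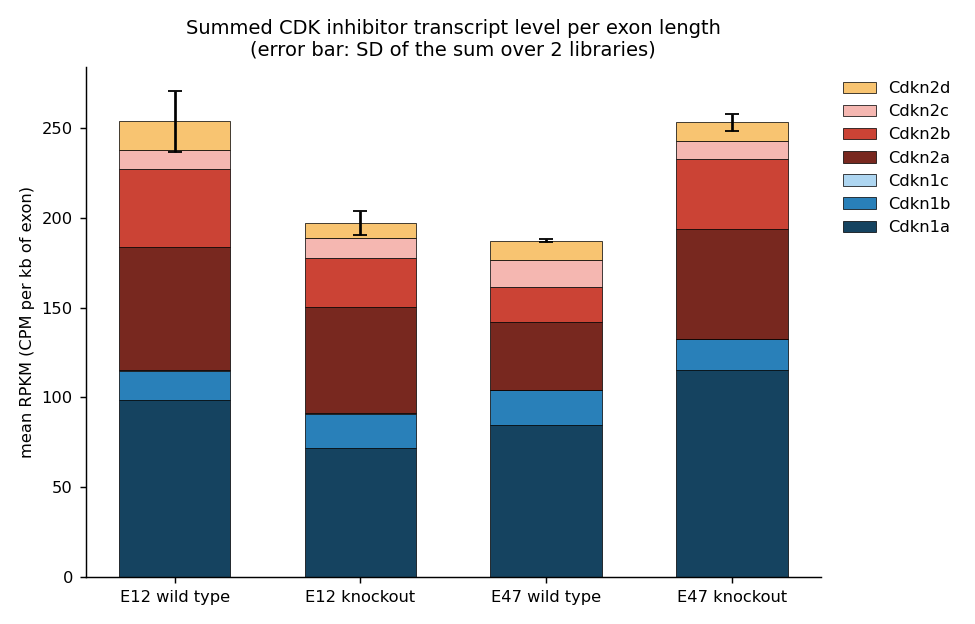
Mean level of the CDK inhibitor transcripts per kb of exon (vertical axis, RPKM) stacked by gene in each genotype (horizontal axis), with the SD of the sum over 2 libraries as error bar. The E12 wild-type and E47 knockout stacks reach 254 and 253 RPKM and the other pair 197 and 187.

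In the E12 knockout, 4 of the 6 tested CDK inhibitor genes fell, Cdkn2d, Cdkn2b, Cdkn1a and Cdkn2a, and Cdkn1b rose, where 24.5% of all 13992 genes tested fell and 21.9% rose. In the E47 knockout Cdkn2b, Cdkn2a and Cdkn1a rose and Cdkn2c fell, where 27.7% of all genes rose and 27.5% fell. In either direction 46.4% of all genes passed the same test (edgeR quasi-likelihood, adjusted p under 0.05) in the E12 comparison and 55.2% in the E47 comparison, so that calls on 5 and on 4 of 6 members are to be read against a background where about every other gene was called. The median change of the 6 members was -0.34 for E12 and 0.18 for E47 on the log2 scale, beside -0.0082 and 0.0092 over all genes. The difference between the E12 and the E47 change passed the test for 6 of 6 members, where 48.6% of all genes did. It was negative for Cdkn1a, Cdkn2a, Cdkn2b and Cdkn2d (25.7% of all genes) and positive for Cdkn1b and Cdkn2c (22.9% of all genes).

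**Figure D2:**
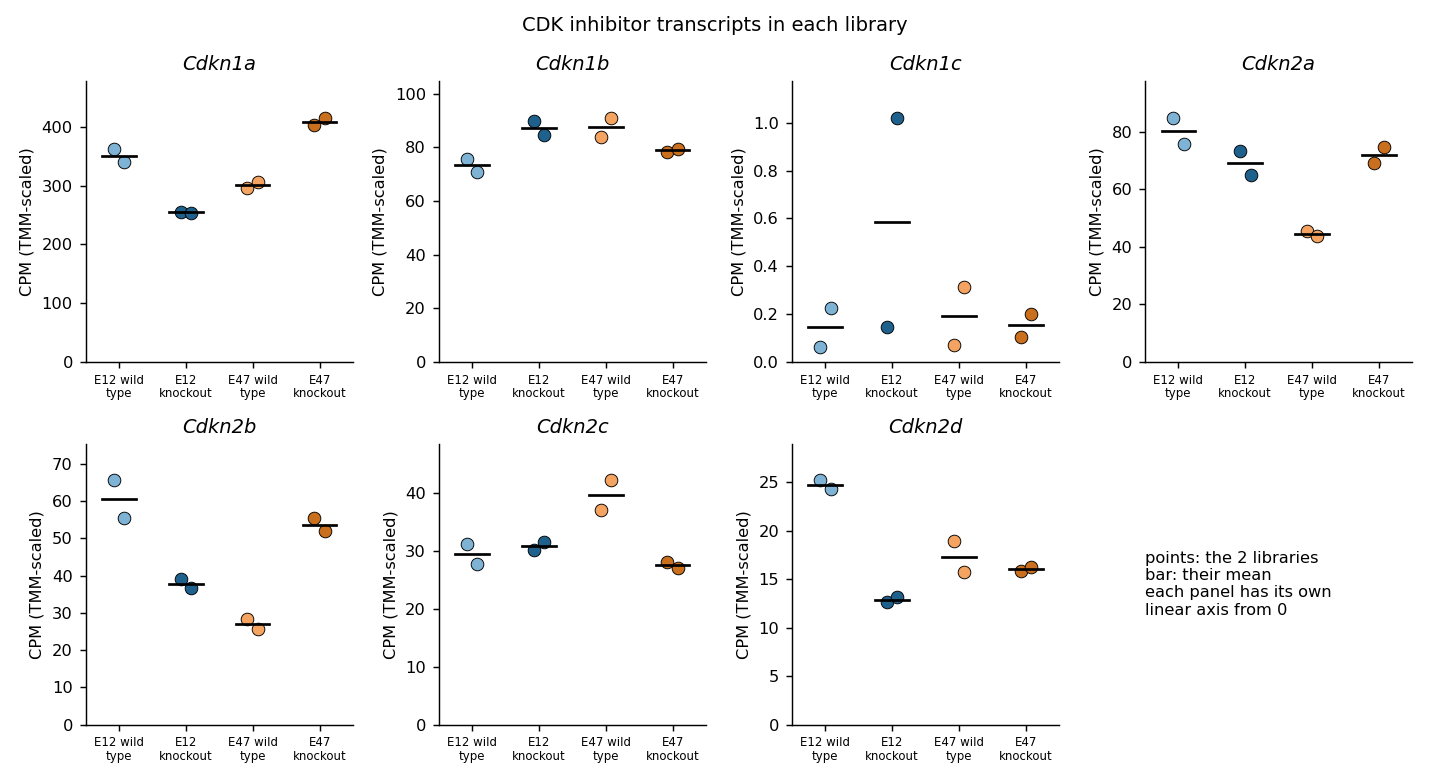
CPM of each CDK inhibitor gene (vertical axes, linear from 0, each panel with its own range) in the 4 genotypes (horizontal axis). Points are the 2 libraries and bars their mean. Cdkn1a and Cdkn2b are lower in the E12 knockout and higher in the E47 knockout than in the matching wild type, and Cdkn1c stays near 1 CPM or under.

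Among the CIP/KIP genes, Cdkn1a, the p53 target that encodes p21, stood at 362 and 340 CPM in E12 wild-type cells and fell to 256 and 253 CPM in their knockout. For E47 it stood at 296 and 306 CPM in wild-type and 403 and 416 CPM in knockout cells. The libraries of a genotype lay close together and no pair of genotypes overlapped. Cdkn1a fell by 27.5% in the E12 knockout (log2 change -0.46, SE 0.0647, edgeR adjusted p = 3.4e-05). It rose by 36.1% in the E47 knockout (0.44, SE 0.0644, adjusted p = 3.7e-05), and the changes differed by -0.91 (adjusted p = 1.2e-06). Its 4 levels were in the order E47 knockout, E12 wild type, E47 wild type and E12 knockout, and each neighbour in that order differed from the next (adjusted p = 0.013, 0.0087 and 0.0044). The first 2 of these steps were small, 0.22 each on the log2 scale. The E47 knockout against the E12 wild type lost its call without the second E12 wild-type library (adjusted p = 0.108) or the second E47 knockout library (0.0895). The wild types lost theirs without the first E12 wild-type library (0.0736) or the first E47 wild-type library (0.0656). The last step, 0.24, was 0.07 with library totals alone (adjusted p = 0.373).

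Cdkn1b, which encodes p27, moved the other way and little. For E12 it had 75.7 and 71.0 CPM in wild-type and 89.8 and 84.5 CPM in knockout cells, and for E47 83.8 and 91.1 CPM in wild-type and 78.4 and 79.6 CPM in knockout cells. The E12 wild type lay below all other libraries, and the E12 knockout and E47 wild type overlapped. Cdkn1b rose by 18.9% in the E12 knockout (0.25, SE 0.0739, adjusted p = 0.012), a call that was lost without the second E12 wild-type library (0.20, adjusted p = 0.0706) or the first E12 knockout library (0.21, 0.0908). In the E47 knockout its change was -0.15 (SE 0.073, adjusted p = 0.097). The difference between the changes was 0.40 (adjusted p = 0.0052). In the order E47 wild type, E12 knockout, E47 knockout and E12 wild type, no neighbours passed the test (adjusted p = 0.94, 0.12 and 0.28). p27 is known to be set largely by protein turnover, which these data do not measure.

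Cdkn1c, an imprinted gene that encodes p57, was close to the limit of detection. For E12 it had 1 and 3 counts in wild-type and 3 and 17 counts in knockout cells, and for E47 1 and 8 counts in wild-type and 2 and 3 counts in knockout cells. The second E12 knockout library, with 1.02 CPM, was above all others, and the first lay among them. With no filter on low counts its change in the E12 knockout was 1.95 (SE 0.832, adjusted p = 0.0724). Without the first E12 knockout library, that is with the library of 17 counts as the only one of its genotype, it became 2.83 (adjusted p = 0.0125), so the result turns on a single library. Of 14 genes of the imprinted cluster around it, 9 were tested, of which 5 fell and none rose in the E12 knockout and 6 fell and 1 rose in the E47 knockout. Of all genes 24.5% fell and 21.9% rose with E12, and 27.5% fell and 27.7% rose with E47, and the list counts that follow are to be read against these shares.

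Among the INK4 genes, Cdkn2a had 84.9 and 75.7 CPM in E12 wild-type cells and 73.5 and 65.1 CPM in E12 knockout cells. E47 wild-type cells had 45.6 and 43.7 CPM and E47 knockout cells 69.2 and 74.9 CPM. The E47 wild type lay well below the 6 other libraries, and the E12 pair did not overlap but nearly touched. Cdkn2a rose by 61.5% in the E47 knockout (0.69, SE 0.0856, adjusted p = 7.9e-06). In the E12 knockout the change was -0.21 (SE 0.0835, adjusted p = 0.049). That fall missed the threshold in 11 of 14 alternative analyses, with adjusted p up to 0.37, and is at the limit of what these libraries resolve. The difference between the changes was -0.90 (adjusted p = 2e-05). In the order E12 wild type, E47 knockout, E12 knockout and E47 wild type, the first 2 steps did not pass the test (adjusted p = 0.15 and 0.62), and the last was 0.64 on the log2 scale (adjusted p = 1e-05).

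Cdkn2b, next to it, had 65.5 and 55.3 CPM in wild-type and 39.0 and 36.6 CPM in knockout cells for E12, and 28.3 and 25.7 CPM in wild-type and 55.3 and 51.9 CPM in knockout cells for E47. E12 wild-type and E47 knockout cells were high, and both lay clear of the other pair of genotypes. Cdkn2b fell by 37.5% in the E12 knockout (-0.68, SE 0.0899, adjusted p = 2.1e-05) and was 2.0 times as high in the E47 knockout as in its wild type (1.0, SE 0.0926, adjusted p = 3.6e-07). The difference of -1.68 (adjusted p = 6.4e-08) was the largest in size of the 6 members. E12 wild-type and E47 knockout cells did not differ beyond their spread (adjusted p = 0.14). Below them the E12 knockout was 0.50 under the E47 knockout (adjusted p = 0.00024) and 0.50 above the E47 wild type (0.0003). The libraries with low Cdkn2a also tended to have low Cdkn2b, with Pearson's r of 0.92 over the 8 libraries, which share genotype groups and are given as a description. Members that are not neighbours also reached large r, with -0.87 and -0.84 for Cdkn2c with Cdkn2a and Cdkn2b, and -0.81 for Cdkn1b with Cdkn2b. The smallest in size was -0.092, for Cdkn2c with Cdkn2d.

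Cdkn2c, which encodes p18, went against Cdkn2a and Cdkn2b in the E47 knockout. E12 wild-type cells had 31.3 and 27.9 CPM and their knockout 30.2 and 31.7 CPM, and E47 wild-type cells had 37.1 and 42.3 CPM and their knockout 28.1 and 27.1 CPM. Only the E47 wild type stood out, above the 6 other libraries. Cdkn2c fell by 30.8% in the E47 knockout (-0.53, SE 0.0883, adjusted p = 0.00013), and its change in the E12 knockout was 0.06 (SE 0.0913, adjusted p = 0.62). The difference was 0.59 (adjusted p = 0.0013). The E47 wild type was above the next genotype, the E12 knockout (adjusted p = 0.0017), and the 2 lower steps did not pass the test (0.62 and 0.42).

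Cdkn2d, which encodes the INK4 protein p19, had 25.2 and 24.3 CPM in E12 wild-type cells and 12.6 and 13.2 CPM in E12 knockout cells. E47 wild-type cells had 18.9 and 15.8 CPM and their knockout 15.8 and 16.2 CPM. The E12 wild type was the high group, the E12 knockout the low one, and the E47 genotypes overlapped. Cdkn2d fell by 48.1% in the E12 knockout (-0.95, SE 0.105, adjusted p = 3.5e-06), the largest fall of a member there. Its change in the E47 knockout was -0.09 (SE 0.105, adjusted p = 0.47), and the changes differed by -0.85 (adjusted p = 0.00026). The E12 wild type was 0.54 above the E47 wild type (adjusted p = 0.00038). The E47 knockout was 0.32 above the E12 knockout (adjusted p = 0.024), a call lost with DESeq2 (adjusted p = 0.0921) and without any 1 of the 4 knockout libraries (0.0558 to 0.123).

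**Figure D3:**
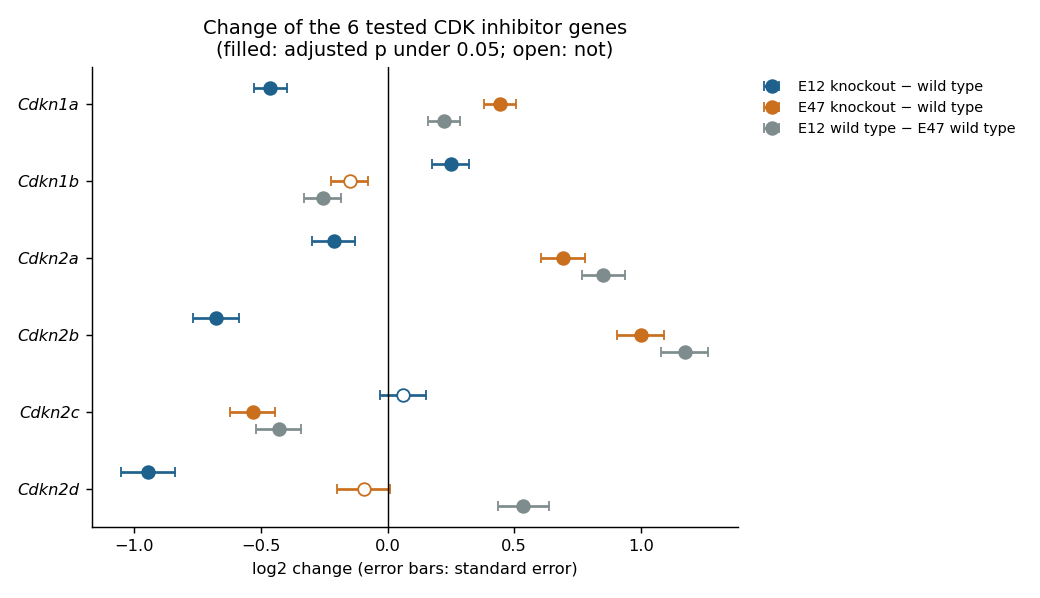
Log2 change (horizontal axis) with its standard error for each of the 6 tested genes (vertical axis), for each knockout against its wild type and for the E12 against the E47 wild type. Filled points have an edgeR adjusted p under 0.05. The E12 and E47 knockout points of Cdkn1a, Cdkn2a and Cdkn2b lie on opposite sides of 0, and the wild-type point of each lies on the side of its E47 knockout point.

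The wild types themselves differed in the family. Cdkn2b was 2.26 times, Cdkn2a 1.81 times, Cdkn2d 1.45 times and Cdkn1a 1.17 times as high in the E12 as in the E47 wild type, and Cdkn1b and Cdkn2c were lower (0.837 and 0.742 times). All 6 tested members passed (edgeR adjusted p from 4.7e-08 to 0.0087), where 55.4% of all genes did, 27.8% higher and 27.6% lower. The Cdkn1b call ended with library totals alone (adjusted p = 0.061) and without the second E12 (0.0515) or second E47 wild-type library (0.118). Between the knockouts 3 of 6 members were called, all lower with E12, against 52.9% of all genes, 27.0% lower and 25.9% higher. Cdkn1a (-0.68, adjusted p = 4.5e-07), Cdkn2b (-0.50) and Cdkn2d (-0.32) were lower in the E12 than in the E47 knockout. The wild types are shared with the knockout comparisons, so these values are not independent of those.

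The remaining pairs cross the lines. Between the E47 knockout and the E12 wild type 2 of 6 members passed, where 38.1% of all genes did, 18.6% higher and 19.6% lower, with Cdkn1a 0.22 higher and Cdkn2d 0.63 lower in the E47 knockout (adjusted p = 0.013 and 0.0002). This pair leaves out the E47 wild-type libraries. Between the E12 knockout and the E47 wild type 5 of 6 passed, where 65.0% of all genes did, 32.5% in either direction. Cdkn2a and Cdkn2b were higher by 0.64 and 0.50 in the E12 knockout, and Cdkn1a, Cdkn2c and Cdkn2d were lower. With the E47 wild-type libraries left out of the fit, 4 members were called in the E12 comparison, Cdkn2a no longer, 3 between the knockouts and 2 between the E47 knockout and the E12 wild type. Of the 13612 genes in that fit, 45.9%, 52.5% and 37.4% were called in the same comparisons.

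The kinases and cyclins that the inhibitors bind were described next. Of 11 such genes 10 were tested, and 2 rose and 5 fell in the E12 knockout, while 2 rose and 6 fell in the E47 knockout. Ccnd1, the cyclin D1 that INK4 proteins keep from its kinases, moved in the directions of Cdkn2b in the 2 knockout comparisons. Between the knockouts it did not, and Ccnd1 was 0.19 higher with E12 (edgeR adjusted p = 0.044). That call held in 11 of 14 alternative analyses, with changes from 0.13 to 0.26. It was lost without the second E12 knockout library, without the second E47 knockout library and with both E47 wild-type libraries left out. E12 wild-type cells had 1723 and 1652 CPM and their knockout 886 and 946 CPM, and E47 wild-type cells had 390 and 424 CPM and their knockout 843 and 767 CPM. It fell by 0.88 in the E12 knockout (adjusted p = 1.6e-07) and rose by 0.98 in the E47 knockout (3.5e-08), and the groups of each comparison did not overlap. Ccnd3, cyclin D3, fell in both knockouts (-0.47 and -0.49, adjusted p = 2.9e-05 and 1.4e-05). Cdk4, the kinase bound by INK4 proteins, rose in the E12 knockout (0.52, adjusted p = 2.5e-05) and changed by 0.14 in the E47 knockout (adjusted p = 0.12). Ccna2, the S-phase cyclin A2, rose in the E12 knockout (0.32, adjusted p = 0.0031) and fell in the E47 knockout (-0.66, 1.1e-05). Of the 13 RB and E2F genes, 1 rose and 4 fell with E12 and none rose and 6 fell with E47. Tfdp2, a partner of E2F factors, fell by 0.94 in the E12 knockout (adjusted p = 7.4e-07).

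Regulators of the inhibitor genes were also counted. Of 18 Polycomb and chromatin genes known for the Ink4 locus, 8 rose and 1 fell in the E12 knockout, and 7 rose and 2 fell in the E47 knockout. Bmi1, a Polycomb protein known to silence Cdkn2a, had 56.0 and 53.8 CPM in E12 wild-type cells and 86.3 and 84.2 CPM in their knockout. E47 wild-type cells had 86.1 and 90.8 CPM and their knockout 76.3 and 74.9 CPM, so that the E12 wild type was lowest, and the E12 knockout and E47 wild type overlapped at the top. Bmi1 rose by 0.63 in the E12 knockout (adjusted p = 3.4e-06) and fell by 0.23 in the E47 knockout (adjusted p = 0.011), and the latter call was lost in 4 of 13 alternatives. Rnf2, the Polycomb ubiquitin ligase, rose in both (0.50 and 0.32, adjusted p = 0.00013 and 0.0031). Of 24 transcription factors known to act on CDK inhibitor genes, 21 were tested, with 11 higher and 2 lower for E12 and 7 higher and 6 lower for E47. Foxo1, a known activator of Cdkn1b, fell in both knockouts (-0.99 and -1.05, adjusted p = 2.1e-06 and 1.9e-07). Ets2, a known activator of Cdkn2a at the p16 start, rose in both (0.92 and 1.19, adjusted p = 4e-07 and 3.1e-08). Of the 7 E and Id protein genes, 2 rose and 3 fell in each comparison.

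The p53 branch was set beside Cdkn1a. Trp53, which encodes p53, rose in both knockouts, by 0.43 and 0.80 (adjusted p = 0.00028 and 5.6e-07), whereas Cdkn1a fell in the first and rose in the second. Of 28 p53 targets, 6 rose and 14 fell in the E12 knockout with a median of -0.17, where 21.9% of all genes rose and 24.5% fell. In the E47 knockout 14 rose and 7 fell with a median of 0.18, where 27.7% of all genes rose and 27.5% fell. Mdm2, the p53 ubiquitin ligase and target, had 266 and 264 CPM in wild-type and 155 and 160 CPM in knockout cells for E12, and 212 and 212 CPM in wild-type and 261 and 237 CPM in knockout cells for E47. It fell by 0.75 in the E12 knockout (adjusted p = 3.9e-07) and rose by 0.23 in the E47 knockout (0.0083), and the rise was lost without the second E47 wild-type library (0.0517) or the first E47 knockout library (0.0972). Btg2, an antiproliferative p53 target, changed by -0.11 with E12 (adjusted p = 0.25) and rose by 1.16 with E47 (1e-08). Gdf15, a secreted p53 target, fell in both (-1.24 and -0.48, adjusted p = 1.9e-08 and 0.00015), so the list did not move as a block. The difference between the changes was negative for 16 and positive for 5 of the 28, against 25.7% and 22.9% of all genes.

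The stability of the inhibitor proteins is set by ubiquitin ligases and their cofactors. Of 14 such genes, 2 rose and 4 fell in the E12 knockout, and 5 rose and 4 fell in the E47 knockout. Rnf123, a subunit of a ligase of p27, fell in both (-0.35 and -0.43, adjusted p = 0.0022 and 0.00037). Cks1b, the cofactor that lets Skp2 recognise p27, fell in the E47 knockout (-0.54, adjusted p = 0.00015) and changed by 0.11 in the E12 knockout (0.36). On the genome Mtap lies beside Cdkn2a and Cdkn2b. Mtap, an enzyme of methionine salvage, had 91.0 and 87.5 CPM in wild-type and 96.9 and 103 CPM in knockout cells for E12, and 63.7 and 64.9 CPM in wild-type and 93.6 and 87.7 CPM in knockout cells for E47. The E47 wild type was the low group, as for Cdkn2a and Cdkn2b. Mtap rose by 0.50 in the E47 knockout (adjusted p = 3.5e-05) and changed by 0.17 in the E12 knockout (0.067), opposite in sign to the pair beside it. Of the 7 neighbours listed, 2 had enough counts to test. The other was Klhl9, an adaptor of a ubiquitin ligase, with 68.3 and 66.5 CPM in wild-type and 79.9 and 88.4 CPM in knockout cells for E12, and 92.6 and 99.8 CPM in wild-type and 85.5 and 82.8 CPM in knockout cells for E47. It was highest in the E47 wild type, the reverse of Mtap, Cdkn2a and Cdkn2b. Klhl9 rose by 0.32 in the E12 knockout (adjusted p = 0.003) and fell by 0.20 in the E47 knockout (0.036), and the fall was lost in 6 of 13 alternatives, among them without the second E47 wild-type library (0.27) and without the first or second E47 knockout library (0.0951 and 0.178).

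Transcripts of proliferation markers were set beside the inhibitors, and the cell-cycle state itself was not measured. For E12 their summed level was 1753 to 1861 CPM in wild-type and 1870.5 to 2103 CPM in knockout cells, and for E47 1265 to 1274 CPM in wild-type and 1037 to 1077 CPM in knockout cells. Of 30 markers, 7 rose and 4 fell in the E12 knockout, and 6 rose and 15 fell in the E47 knockout. Mcm6, a subunit of the replicative helicase, rose in both (0.69 and 0.32, adjusted p = 1.5e-06 and 0.0022). Mki67 fell by 1.37 in the E47 knockout (adjusted p = 6.9e-06), and its change of 0.28 in the E12 knockout (0.17) rested on libraries as far apart as 109 and 172 CPM within the wild type and passed the test in 4 of 14 alternatives. Against the E12 wild type the E47 knockout was lower in 30 of 30 markers, where 19.6% of all genes were lower and 18.6% higher. The family sums of the inhibitors were 254 RPKM in that wild type and 253 RPKM in the E47 knockout. Within these sums Cdkn1a was 0.22 higher and Cdkn2d 0.63 lower in the E47 knockout on the log2 scale. A link between the markers and the inhibitors was not tested. Of 20 senescence-associated genes, 15 were tested, with 5 higher and 8 lower for E12 and 6 higher and 2 lower for E47. Lmnb1, lamin B1, whose loss is a known mark of senescence, rose by 1.07 in the E12 knockout (adjusted p = 1.5e-08) and changed by 0.09 in the E47 knockout (0.35). Igfbp3, a secreted binder of insulin-like growth factors, fell by 0.49 in the E12 knockout and rose by 3.42 in the E47 knockout (adjusted p = 0.00037 and 5.2e-13).

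Genes whose profile over the 8 libraries was most like each member were found by the root mean square difference of log2 CPM, each gene centred on its mean, among 11125 genes. For Cdkn1a these included Ift20 and Dnajb2 (0.0477 and 0.0521). For Cdkn2a they were Banf1, Rpl27 and Acot13 (0.0482, 0.056 and 0.0566), and for Cdkn2b Cmtm7, S100a6 and Fam117a (0.0865, 0.109 and 0.111). Nearest to Cdkn1b were Brap, Khnyn and Ift140 (0.0417, 0.0442 and 0.0444), distances that are large beside its own small departure given below. For Cdkn2c they included Cdan1 and Rrn3 (0.0519 and 0.0574), and for Cdkn2d they were Slc22a15, Chst12 and Fuca2 (0.079, 0.0868 and 0.0896). No CDK inhibitor gene could enter these lists by the rule. The members' own root mean square departure from their means ran from 0.114 for Cdkn1b to 0.459 for Cdkn2b, which gives the scale of these distances.

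**Figure D4:**
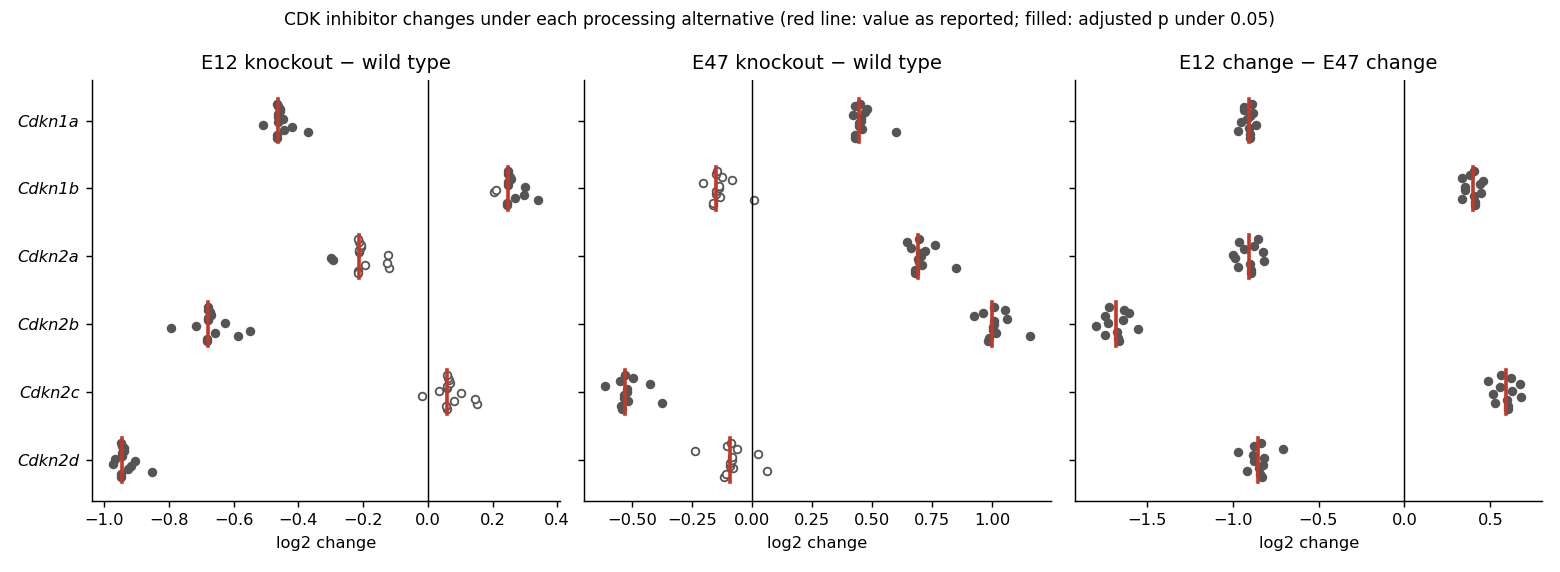
Log2 change (horizontal axes) of each tested gene (vertical axis) in the E12 knockout, in the E47 knockout and for the difference between them, as reported (red line) and under each alternative analysis (points, filled where the adjusted p is under 0.05). The points of the difference stay filled for all 6 genes, and in the E12 panel open points appear for Cdkn1b, Cdkn2a and Cdkn2c.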

How the data were processed

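Per the labels' protocols, RNA was extracted with Trizol and sequenced from unstranded libraries after polyA selection. Tools named in the submitters' processing notes are FastQC, HISAT and featureCounts, on the build GRCm38 (mm10). Their versions, settings and annotation were not stated there. The authors deposited whole-number counts for each gene in each library, neither normalized nor pooled. Of the rows, 26 had symbols turned into dates and carried 0.153% to 0.198% of a library's counts, which stayed in the totals.

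Counts were tested with edgeR 4.0.16 (R 4.3.3): its filter on low counts (13992 genes kept), TMM scaling, a model of 4 genotypes over 8 libraries with 4 residual degrees of freedom, the quasi-likelihood F test and Benjamini-Hochberg adjustment over all genes tested, called under 0.05. RPKM values are TMM-scaled CPM per kb of the union of M21 exons. DESeq2 1.42.0, RLE scaling, library totals alone, no filter, fits of the compared genotypes alone and leaving out each library were alternatives, and leaving out both E47 wild-type libraries was added after seeing the data. Fits were tested on simulated counts.

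The members, the 17 gene lists (243 symbols, 1 matched by a synonym) and the tests were chosen with earlier results of these data known. Text names the members, Tcf3, Trp53, Mdm2, neighbours of members, and among list members past the test in either knockout up to 4 with the lowest p per comparison. Limits of 3 counts cover counting error only. Libraries of a genotype are called first and second in the order of their labels, which is only a name. Some genes taken by this naming rule are not reported.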

Additional observations from a re-analysis of the deposited data

Results flagged for a closer look

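The change in the E12 knockout minus the change in the E47 knockout passed edgeR's interaction test for all 6 members tested, as it did for 48.6% of all genes. On the log2 scale it was -0.91 for Cdkn1a, 0.40 for Cdkn1b, -0.90 for Cdkn2a, -1.68 for Cdkn2b, 0.59 for Cdkn2c and -0.85 for Cdkn2d (adjusted p from 6.4e-08 to 0.0052).

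Among the genes named beside them, the difference was negative for Ccnd1 (-1.87), Tfdp2 (-0.98), Trp53 (-0.37), Mdm2 (-0.98), Btg2 (-1.27), Gdf15 (-0.76), Mtap (-0.33) and Igfbp3 (-3.91). It was positive for Ccna2 (0.99), Cdk4 (0.38), Bmi1 (0.86), Cks1b (0.65), Klhl9 (0.51), Mki67 (1.65), Mcm6 (0.38) and Lmnb1 (0.98). The Trp53 difference missed the threshold without the second E47 wild-type library (adjusted p = 0.079), and that of Mtap without the first E12 knockout library (0.0605) or the first E47 knockout library (0.0626). The E47 wild type, with its endothelial, smooth muscle and Xist counts apart from the other libraries, enters each of these differences, and its part in them was not tested.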

How the results depend on the processing

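The differences between the E12 and E47 changes of all 6 members, and the 4 calls in the E47 knockout, held in every alternative run, and no called value changed sign. Of 558 alternative values of single members, 29 lost and 2 gained a call. With library totals alone, 2 rather than 5 members were called between the E12 knockout and the E47 wild type, where Cdkn1a (-0.07, adjusted p = 0.373), Cdkn2c (-0.20, 0.0601) and Cdkn2d (-0.24, 0.0634) no longer passed. That scaling moved the median of all genes by 0.156 in the E47 comparison and 0.166 in the one just named, and the share of higher calls from 47.2% to 59.4% (E12), 50.1% to 67.1% (E47), 48.7% to 61.9% (E47 knockout against E12 wild type) and 50% to 62.8% (E12 knockout against E47 wild type). It also turned the uncalled E47 changes of Cdkn1b and Cdkn2d to 0.0065 and 0.061. Leaving out 1 library at a time gave 1 to 3 members called between the E47 knockout and the E12 wild type. Cdkn2a (-0.24, adjusted p = 0.05) and Cdkn2b (-0.29, 0.0197) were the gains, without the second E12 wild-type library. Taking any CANNTG E-box in place of the 3 letters raised the share of promoters with a match from 32.9% to 72.3%, by its construction. The cause was not tested for the other changes. No paired analysis was possible because the labels give the libraries no shared replicate numbers. With 2 libraries a genotype, a lone library left by omission is assumed to vary like the others.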

Other observations

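Some genes of the wider region around the members were close to absent. Of the imprinted cluster around Cdkn1c, H19 had 3 to 10 counts per genotype and Igf2 0 to 2. Among the genes listed as neighbours of Cdkn2a and Cdkn2b, Dmrta1 had 2 counts in the E47 knockout and 0 in the other genotypes. Ifna1 had 0 counts in all libraries.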
